A study of Homo sapiens with 12 samples.

Results

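The comparison described here is sorafenib against vehicle in the light fraction of sucrose gradients, measured as gene counts in 6 of the series' 12 libraries: 3 from vehicle cultures and 3 from sorafenib cultures. HepG2, an established human hepatocellular carcinoma line, wild type and with epithelial-like morphology per the labels, was plated for 24 h and then given 10 µM sorafenib, a multikinase inhibitor used against this cancer, or its solvent DMSO for 12 h. Both groups received cycloheximide at 200 µg/ml before lysis, and lysates were separated on gradients of 10 to 50% sucrose. The light pool (Fraction 1) joins the low-molecular complexes, the free ribosomal subunits and the single ribosomes, and the polysome pool (Fraction 2) of the same gradients supplies the other 6 libraries. The members were found by treatment and fraction in the sample titles, and all 12925 genes of 57353 rows with enough counts in these 6 libraries were tested. One cell line, one dose and one time were used, dishes of one condition were joined before the gradient, and each number is 1 culture as far as the titles say.

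On a gradient, an mRNA that carries several ribosomes sediments with polysomes, and one that carries none or a single ribosome stays in the light pool together with non-coding RNAs in small particles. A transcript can therefore be more abundant in the light pool because it left polysomes or because the cell holds more of it. No library of unfractionated RNA is used here, so a change of level and a move between fractions cannot be told apart, and fewer cells and less RNA per cell cannot be told apart either. Sorafenib inhibits RAF kinases and receptor tyrosine kinases, and in liver cancer cells it is known to disturb mitochondria, signalling to translation factors and iron metabolism.

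The libraries differed in depth and in scattered background. Vehicle libraries held 9888231, 11955977 and 7387602 counts, and sorafenib libraries 1, 2 and 3 held 2060384, 511065 and 4989312, so library 2 is very shallow. Log2 CPM (counts scaled to a common library size) correlated at 0.95 to 0.98 among vehicle libraries. In the sorafenib group the correlation was 0.95 between libraries 1 and 3, 0.85 between 1 and 2, and 0.82 between 2 and 3. Rows of 405 olfactory receptor genes, which liver cells are not known to use, took 10.5, 5.44 and 22.5 CPM in vehicle libraries 1, 2 and 3, and 117, 479 and 20.8 in sorafenib libraries 1, 2 and 3. A list of 30 genes restricted to retina, neurons, muscle or germ cells gave 12.5, 10.5 and 24.4 against 83, 393 and 21.4. At an equal depth of 511065 counts, sorafenib library 2 detected 25638 rows and library 1 detected 16836, against 13272 to 14128 in the other 4 libraries. What these background reads are was not tested. Sorafenib library 3 stood within the vehicle range on both background measures, and results are given below also without libraries 1 and 2 of that group. The HepG2 label was borne out by its markers: 14 of 15 hepatocyte-lineage genes passed the count filter, ALB, AFP and APOA1 were abundant in all 6 libraries, and none of 9 fibroblast and 6 endothelial markers passed it. Of 9 leukocyte markers, LYZ, CD68 and ITGB2 passed, and CD68, a lysosomal membrane protein, was called higher (1.15, adjusted p = 0.00606). That list summed to 185, 212 and 65.7 CPM in vehicle and 194, 250 and 322 in sorafenib libraries, mostly LYZ, and PTPRC, which defines leukocytes, had 1 to 4 counts in each library.

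**Figure D1:**
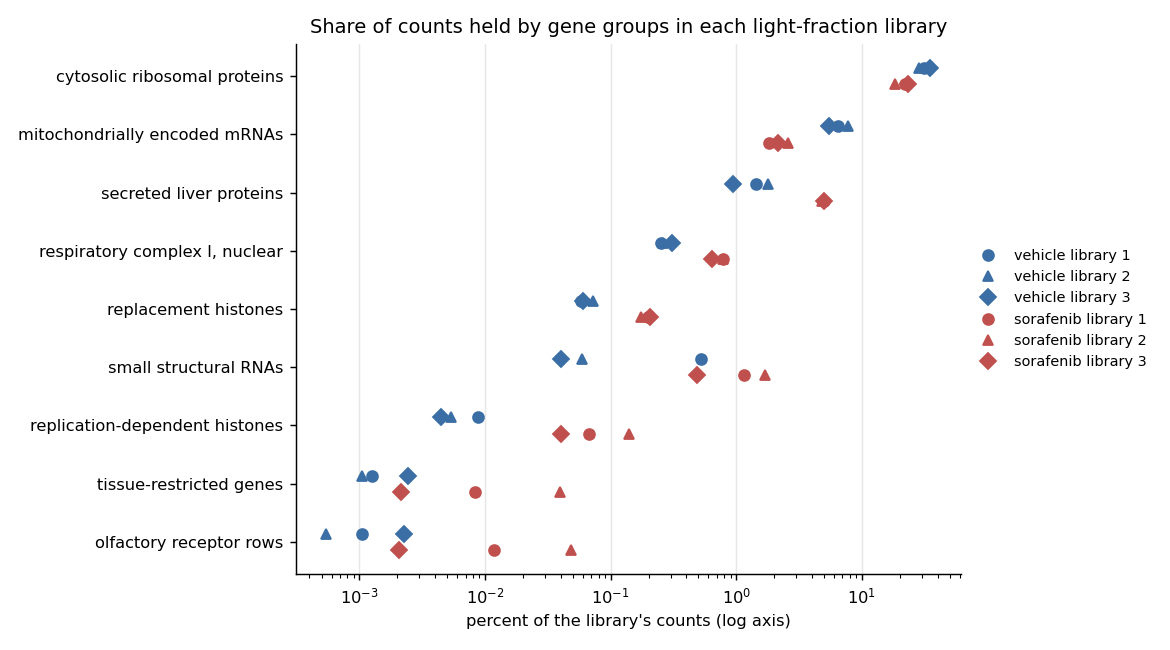
Each point is 1 light-fraction library, and its position is the percent of that library's counts held by a gene group, on a log axis. Secreted liver proteins, complex I and replacement histones lie higher in all 3 sorafenib libraries, ribosomal proteins and mitochondrial mRNAs lie lower, and the olfactory receptor and tissue-restricted rows are high in sorafenib libraries 1 and 2 but not in library 3.

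Sorafenib changed the light pool broadly. In edgeR's quasi-likelihood test with Benjamini-Hochberg adjusted p under 0.05, 1609 genes were higher (12.4% of those tested) and 1853 were lower (14.3%), which makes 26.8% in either direction. Of these, 1184 rises and 1576 falls were at least 2-fold. Every sorafenib library was above every vehicle library for 18.8% of all tested genes and below for 23.2%. These percentages are the background for each gene group below, and the median log2 fold change over all tested genes was -0.04. Well-counted genes were called most often: 26.2% rose and 18.9% fell at a mean log2 CPM of 7 and over, against 5.7% and 9.98% under 3. At 5 to 7 it was 21.1% and 14.7%. A list of well-counted genes can therefore exceed the shares over all genes through its counts alone. No list below was compared with genes of like counts.

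Single libraries weighed on how many genes passed. Without vehicle library 1, vehicle library 2 or sorafenib library 1, the test called 777, 705 and 653 rises and 1062, 1052 and 838 falls. Without sorafenib library 2 it called 2174 and 2361. All 6 such fits called 503 of the rises and 679 of the falls. Leaving out both shallow sorafenib libraries sets sorafenib library 3 alone against 3 vehicle libraries. The spread then comes from the vehicle libraries only, and the lone library is assumed to vary like them, here and for each count below given without both. In that fit 1047 of 1606 rises and 1027 of 1853 falls were still called, and 1 rise and 0 falls changed sign (in the fit on all 6 libraries, at an unadjusted p under 0.05, 2431 genes were higher and 2743 lower). Scaling by library totals alone moved the median of all genes from -0.04 to 0.29 and the share of rises among calls from 46.5% to 73.4%. Directions below are relative to that median. The lists whose median changed sign under another scaling were those for histone mRNA 3' end processing, liver transcription factors, mitochondrial import, iron handling, ERK outputs, ribosome biogenesis, mTORC1 components and tubulins. No direction is given for those 8 as groups. Where a list below had no call in one direction in edgeR's test, it had 0 members in that direction at an unadjusted p under 0.05 and 0 in DESeq2. The exceptions at the unadjusted p were 1 gene each of histone 3' end processing (higher), YAP-TEAD targets (lower) and mitosis (lower). The test of limma voom with library weights called 1 gene each of ribosomal proteins and nuclear-retained RNAs higher, 1 each of secreted liver proteins and fatty acid oxidation lower, 2 of 3' end processing higher and 2 of mitosis lower.

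**Figure D2:**
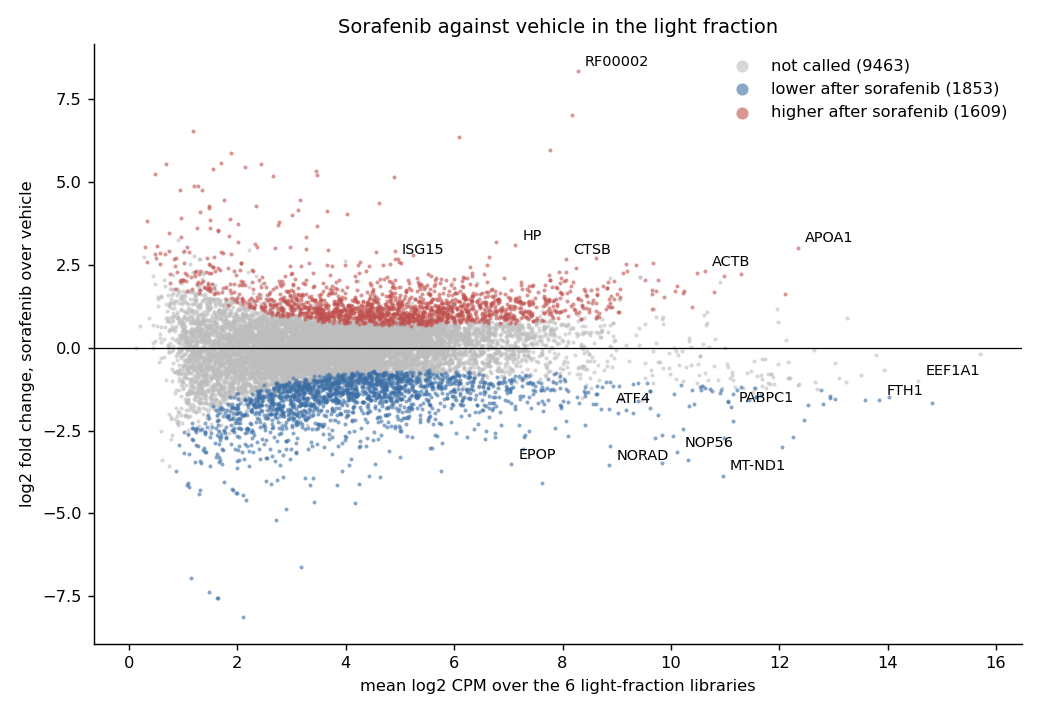
Each point is 1 of the 12925 tested genes, placed by its mean log2 CPM over the 6 libraries and its log2 fold change, sorafenib over vehicle; colours mark the 1609 rises and the 1853 falls. Ribosome-related and mitochondrial genes such as PABPC1 and MT-ND1 fell at high counts, while APOA1, ACTB and the 5.8S rRNA row RF00002 rose.

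A part of the ribosomal protein and TOP mRNAs fell in the light pool. The ribosomal protein mRNAs and the TOP mRNAs (those that begin with a C followed by an uninterrupted run of pyrimidines, the 5' terminal oligopyrimidine tract through which mTORC1 and LARP1 control their translation) had no member that rose. Of 79 cytosolic ribosomal protein genes, 21 fell and 58 were not called, with a median log2 fold change of -0.96, and 59 were below vehicle in every sorafenib library. Of 25 other TOP genes, mostly translation factors, 13 fell, with a median of -1.12. The starts of 4 of these mRNAs are shown because the tract defines the class; capitals mark the uninterrupted pyrimidines at the first base of the RefSeq start (GRCh38.p14, minus strand, first 20 bases).
EEF1A1, chr6:73521013-73521032: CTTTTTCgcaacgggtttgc
TPT1, chr13:45341164-45341183: CTTTTCCgcccgctcccccc
RPS6, chr9:19380217-19380236: CTCTTTTCCgtggcgcctcg
RPLP0, chr12:120201092-120201111: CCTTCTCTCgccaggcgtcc

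RPLP0, a protein of the ribosomal stalk, stood at 12317, 11594 and 13394 TMM-scaled CPM (used for all gene levels below) in vehicle libraries 1, 2 and 3, and at 4736, 3025 and 4970 in sorafenib libraries 1, 2 and 3. Every sorafenib library was far below every vehicle library (log2 fold change -1.55, SE 0.40, edgeR adjusted p = 0.0139). PABPC1, the poly(A)-binding protein and itself a TOP mRNA, went from 3303, 3709 and 3309 to 822, 1026 and 1126, a log2 fold change of -1.80 (SE 0.35, adjusted p = 0.00347) with groups far apart. TPT1, the translationally controlled tumour protein, fell by 1.46 on the log2 scale (adjusted p = 0.0225). EEF1A1, which brings aminoacyl-tRNA to the ribosome, had 29894, 29536 and 37429 against 17478, 11603 and 19188. Its groups did not overlap, but the log2 fold change of -1.0 did not pass (adjusted p = 0.103). RPS6, the ribosomal protein phosphorylated by S6 kinase, was similar: 9043, 7583 and 9364 against 4818, 2700 and 5245, with adjusted p = 0.076.

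Among other members, EIF4B (a helper of the helicase that unwinds mRNA leaders) fell by 1.87 on the log2 scale, with adjusted p = 0.0053. LARP1, the protein that binds the TOP tract, fell by 1.33 (adjusted p = 0.00427). EIF3A, the largest eIF3 subunit, fell from 58.2, 105 and 107 to 31.4, 35.5 and 39.3 (-1.34, SE 0.30, adjusted p = 0.00642), which did not pass without sorafenib library 1 or without both shallow libraries (nor did that of EIF4B without library 1). The calls on ribosomal proteins depended on single libraries: 0 of 79 were called without sorafenib library 1, 2 without vehicle library 1, 4 without vehicle library 2, 10 without vehicle library 3, 35 without sorafenib library 2 and 34 without sorafenib library 3. Without both shallow libraries it was 2, with a median of -0.63, and RPLP0 was among the genes not called without sorafenib library 1. For the other TOP genes the count went from 13 to 2 without sorafenib library 1, to 6 and 5 without vehicle libraries 1 and 2, and to 4 without both shallow libraries. The TPT1 call was lost without vehicle library 1, vehicle library 2, sorafenib library 1 or both shallow libraries.

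The tract was then looked for in all genes, a description added after the values above were seen. Of 27305 RefSeq promoters, 1104 (4.04%) had a C followed by 4 pyrimidines at the start, and 527 of the 9327 tested genes with a promoter entry did (5.65%). The motif was read on the transcribed strand at the annotated start alone, which need not be the start used in these cells. It was present in 43 of 63 ribosomal protein genes and 14 of 17 other TOP genes. Among genes that fell, 87 of 1217 (7.15%) had it, and among genes that rose, 41 of 1207 (3.4%). Leaving ribosomal protein genes aside, 16.3% of 484 genes with such a start fell and 8.47% rose, against 12.8% and 13.3% of 8780 genes with another start. The other TOP genes were not left aside, so falls already given above are among these.

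Translation factors that are not TOP mRNAs did not share the fall: 12 of 37 rose and 2 fell, with a median log2 fold change of 0.48. MCTS1, which recycles ribosomal subunits and helps re-initiation, rose from 13.5, 15.1 and 17.3 to 52.2, 60.2 and 35.4 (log2 fold change 1.64, SE 0.27, adjusted p = 0.00164). EIF2B3, a subunit of the exchange factor for eIF2, rose by 1.06 on the log2 scale (adjusted p = 0.0074), a call lost without vehicle library 2 or sorafenib library 1. Leaving out 1 library gave 3 to 16 rises in this list, with 4, 3, 7, 4 and 6 without vehicle libraries 1, 2 and 3 and sorafenib libraries 1 and 3.

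In the list of mTORC1 components and translation repressors, 4 of 21 rose and 4 fell, counts that became 0 and 1 without sorafenib library 1, 1 and 2 without vehicle library 1, 0 and 2 without vehicle library 2, and 1 and 2 without sorafenib library 3. The 2 eIF4E-binding repressors went apart. EIF4EBP2 fell from 235, 267 and 312 to 98.1, 120 and 121 (log2 fold change -1.26, adjusted p = 0.00602). EIF4EBP1 had 44.3, 48.6 and 49.1 against 104, 67.9 and 105 (0.99, adjusted p = 0.0144). Neither change passed without sorafenib library 1, and that of EIF4EBP1 was also lost without vehicle library 1, vehicle library 2 or sorafenib library 3.

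Ribosome production was touched at single genes. Of 38 ribosome biogenesis and nucleolar genes 2 rose and 4 fell, shares below the background (1 fell without vehicle library 2 or sorafenib library 1). NOP56, a core protein of the box C/D particles that methylate rRNA and the host of several snoRNAs, was the exception in size. It stood at 1605, 2079 and 2276 in vehicle and at 275, 177 and 212 in sorafenib libraries. The log2 fold change was -3.16 (SE 0.36, adjusted p = 0.000347), and the call held in each of the 24 alternatives. TCOF1, the treacle protein of rRNA transcription, fell by 0.91 (adjusted p = 0.0172, not called without vehicle library 2 or sorafenib library 1), and NOC4L, a small-subunit assembly factor, rose by 1.13 (adjusted p = 0.00601). Of the 22 cytosolic tRNA synthetases, 2 rose (1 without vehicle library 1, vehicle library 2 or sorafenib library 3, 0 without sorafenib library 1 and 4 without sorafenib library 2) and 3 fell. MARS, the methionyl enzyme, went from 51.6, 71.4 and 154 to 18.4, 26.2 and 37.5 (-1.72, adjusted p = 0.00936), and QARS, the glutaminyl enzyme, fell by 1.37 (adjusted p = 0.0085). None of the 3 falls was called without sorafenib library 1 or without both shallow libraries.

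Messages for the respiratory chain split by the genome that encodes them. All 13 mRNAs of the mitochondrial genome fell, with a median log2 fold change of -2.71, and their share of counts went from 6.44, 7.79 and 5.47% in vehicle libraries to 1.82, 2.56 and 2.14% in sorafenib libraries. MT-ND1, a membrane subunit of complex I, had 3938, 4950 and 2249 CPM in vehicle and 210, 151 and 396 in sorafenib libraries. The groups were far apart (log2 fold change -3.87, SE 0.49, adjusted p = 0.000468). MT-ND3, another complex I subunit, fell by 3.39 (adjusted p = 0.000378). MT-CO1, the catalytic subunit of cytochrome oxidase, fell less: 24212, 20902 and 9806 against 5742, 4496 and 8233 (-1.57, adjusted p = 0.0266). The MT-CO1 call was lost without vehicle library 1, vehicle library 2, sorafenib library 1 or both shallow libraries. Over the list, 8 of 13 were called without sorafenib library 1 and 9 without both shallow libraries, where the median was -2.21.

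Mitochondrial tRNAs and rRNAs followed in part. Of 24 rows, 17 fell, with a median of -2.64, although the summed share of the list did not fall: 7.27, 6.47 and 3.4% in vehicle and 8.04, 6.92 and 5.84% in sorafenib libraries. Most counts of the list were those of the rRNAs MT-RNR1 and MT-RNR2, whose shares of library counts overlapped between the groups. MT-RNR2 had 594942, 697322 and 229797 raw counts in vehicle and 129766, 27575 and 241620 in sorafenib libraries, which differ in depth as given above. MT-TT, the threonine tRNA, had 517, 353 and 221 against 12.1, 37 and 20.6, which was the largest fall among well-counted genes (mean log2 CPM 5 or more) without overlap (-4.08, SE 0.45, adjusted p = 0.000321). MT-TI, the isoleucine tRNA, fell by 3.72 on the log2 scale with adjusted p = 0.000299. Counts of short tRNA rows can hold reads of neighbouring mRNAs, which were not separated here.

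Nuclear genes for the same respiratory chain moved the other way. Of 37 nuclear-encoded complex I genes 21 rose and none fell (median 0.84), and of 43 genes for complexes II to V 15 rose and none fell (median 0.58). NDUFB10, a complex I subunit, went from 54.5, 67.5 and 60.2 to 217, 185 and 159 (log2 fold change 1.62, SE 0.26, adjusted p = 0.00162). NDUFA9 and NDUFS5, of the same complex, rose by 1.65 and 1.71 on the log2 scale. COX5B, of cytochrome oxidase, had 160, 158 and 215 against 637, 421 and 512 (1.56, adjusted p = 0.00362). ATP5PD, of the ATP synthase stalk, rose by 1.74 (adjusted p = 0.00445). In all 5 genes each sorafenib library lay above each vehicle library.

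The proteins that translate mitochondrial mRNAs rose at some members: 17 of 77 mitochondrial ribosomal protein genes rose and 3 fell (median 0.48). MRPL54, of the large subunit, had 39.3, 34.6 and 67.2 in vehicle and 245, 224 and 137 in sorafenib libraries (2.10, SE 0.34, adjusted p = 0.00158). MRPL27, of the same subunit, rose by 2.03 (adjusted p = 0.00237). Import and chaperone genes stayed near the background, with 5 of 30 higher and 1 lower, and 0 higher without vehicle library 1, vehicle library 2 or sorafenib library 1, 1 without vehicle library 3, 2 without sorafenib library 3 and 9 without sorafenib library 2. Counts of these groups moved with single libraries. Complex I had 11, 8, 15 and 10 rises without vehicle libraries 1, 2, 3 and sorafenib library 1, 30 without sorafenib library 2 and 15 without sorafenib library 3. The group of complexes II to V had 6, 5, 8, 5, 23 and 8 in the same order, and the mitochondrial ribosome had 8, 6, 13, 5, 39 and 13, with 0 falls without vehicle library 1, vehicle library 2 or sorafenib library 1. Without both shallow libraries the 3 counts were 21, 18 and 23 with 0 falls.

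**Figure D3:**
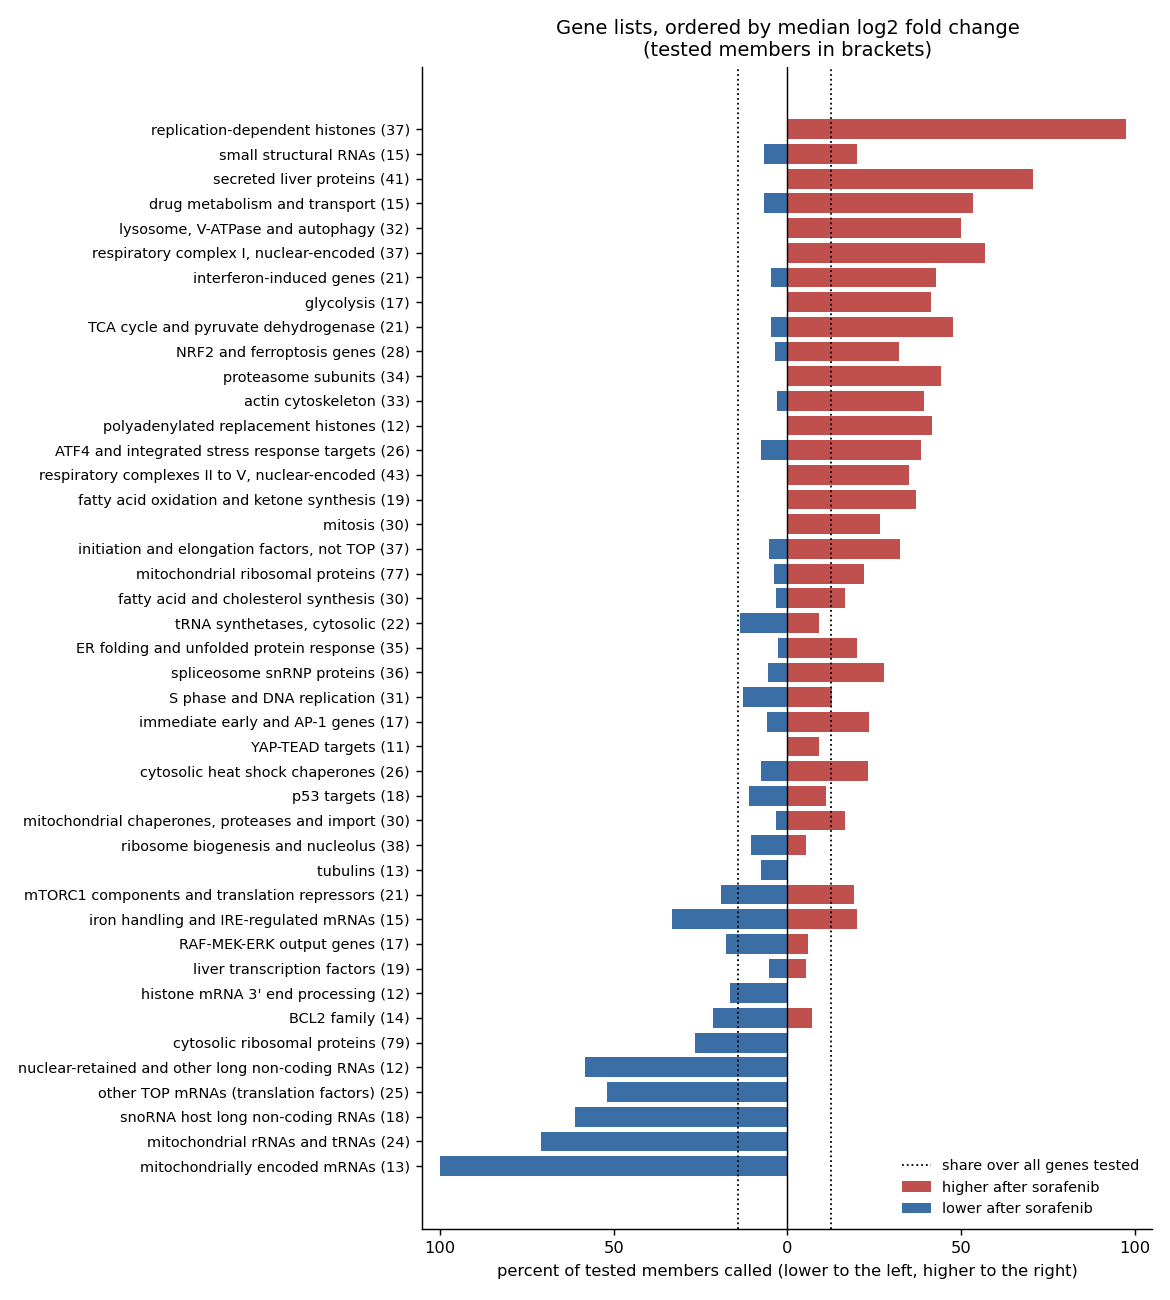
Bars give the percent of each list's tested members that rose (right) or fell (left) after sorafenib, lists are ordered by their median log2 fold change, and dotted lines mark the 12.4% and 14.3% over all tested genes. Secreted liver proteins (29 of 41) stand near the top, and mitochondrially encoded mRNAs (13 of 13) at the bottom. The bar of replication-dependent histones covers only the 37 of 68 genes that passed the count filter and is no measure of that class.

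Messages of secreted liver proteins gained the largest share of the light pool among the lists that rose. Of 41 tested genes 29 rose and none fell, with a median log2 fold change of 1.32, and their share of counts went from 1.44, 1.79 and 0.949% in vehicle libraries to 5.01, 4.77 and 5.02% in sorafenib libraries. APOA1, the main protein of high-density lipoprotein, had 1117, 1337 and 979 CPM against 9538, 11955 and 6228 (log2 fold change 3.01, SE 0.42, adjusted p = 0.000873). HP, the haemoglobin-binding haptoglobin, went from 27.2, 37.3 and 25.9 to 304, 292 and 176 (3.08, SE 0.32, adjusted p = 0.000299). In both genes the sorafenib libraries lay far above the vehicle libraries.

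ALB, serum albumin, had 1892, 3019 and 1609 against 6940, 5341 and 7686 (1.61, adjusted p = 0.0115), a call lost without vehicle library 1 or sorafenib library 1. APOE, a lipid carrier, rose by 2.26 (adjusted p = 0.00129), and F10, clotting factor X, by 1.80 (adjusted p = 0.000935). AFP, the fetal counterpart of albumin, had 1322, 1456 and 374 against 2521, 1410 and 2334, with overlapping groups and no call (0.99, adjusted p = 0.137). Leaving out 1 library gave 18 to 34 rises in the list, with 18 without sorafenib library 1 and 19 without vehicle library 1, and leaving out both shallow libraries gave 26.

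Liver transcription factors were mostly not called: of 19, GATA4 was higher and NR0B2 lower. NR0B2, the small heterodimer partner that represses bile acid synthesis, went from 66.9, 50.5 and 28.5 to 11.1, 10.8 and 14.3 (-1.96, SE 0.34, adjusted p = 0.00217). The GATA4 call, at 0.96 on the log2 scale (adjusted p = 0.0277), was lost without vehicle library 1, vehicle library 3, sorafenib library 1, sorafenib library 3 or both shallow libraries.

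In the list of ER folding and unfolded protein response genes, 7 of 35 rose and 1 fell (median 0.35). PDIA3, a disulfide isomerase of glycoprotein folding, had 72.3, 100 and 51.8 against 316, 245 and 273 (1.90, SE 0.31, adjusted p = 0.00167), and HSP90B1, the ER form of HSP90, rose by 1.70 (adjusted p = 0.00475). RPN2, of the oligosaccharyl transferase, was among the 12 largest rises, from 102, 121 and 95.3 to 575, 1182 and 324 (2.70, SE 0.44, adjusted p = 0.00158). Of 32 lysosomal, V-ATPase and autophagy genes 16 rose and none fell (median 0.91). CTSB, the protease cathepsin B, went from 82.7, 77.4 and 60.2 to 461, 700 and 249 (2.67, SE 0.38, adjusted p = 0.000934). CTSL and CTSD, also lysosomal enzymes, rose by 2.02 and 1.77.

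The lysosomal count was 9, 7, 12 and 9 without vehicle libraries 1, 2, 3 and sorafenib library 1, 22 without sorafenib library 2, 9 without sorafenib library 3 and 15 without both shallow libraries. The ER count was 4 without vehicle library 1, 4 without vehicle library 3, 3 without sorafenib library 1 and 12 without sorafenib library 2. RPN2 and CTSB both had their highest level in sorafenib library 2 and their lowest of that group in library 3, the order of the background reads. Other named rises had the same order, among them APOA1, PSAT1, FDFT1, MRPL27, ETFB, SNRPB2, NDUFS5, NDUFA9, CTSD and MCTS1. PSAT1 had 281, 415 and 145 in sorafenib libraries 1, 2 and 3. FDFT1 had 418, 568 and 225, and MRPL27 had 433, 633 and 244. The part of background in all these genes was not tested. In each of them sorafenib library 3 stood above every vehicle library. Other named rises, among them ACTB, NQO1 and MT1X, were lowest of that group in library 2.

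Of the drug metabolism and transport genes, 15 of 35 passed the filter, 8 of which rose (5 without vehicle library 1) and 1 fell. GSTM3, a glutathione transferase, had 35.8, 33 and 52.1 against 202, 150 and 125 (1.98, SE 0.30, adjusted p = 0.00109). CES1, a liver carboxylesterase, had 6.81, 9.1 and 1.72 against 42.5, 26.2 and 36 (2.56, adjusted p = 0.0017), and SULT2A1, a steroid sulfotransferase, rose by 2.16 (adjusted p = 0.00167).

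Called iron genes changed in both directions. Ferritin, the iron store, is made of FTH1 and FTL, whose mRNAs carry an iron-responsive element in their leader. FTH1 stood at 24831, 20794 and 20328 in vehicle and at 9771, 4505 and 7748 in sorafenib libraries (log2 fold change -1.58, SE 0.44, adjusted p = 0.0198). FTL had 50796, 45101 and 36261 against 17851, 8592 and 15428 (-1.66, SE 0.47, adjusted p = 0.021). Neither pair of groups overlapped, but both calls were lost without vehicle library 1, sorafenib library 1 or sorafenib library 3, and that of FTL also without vehicle library 2. EPAS1, a hypoxia-inducible factor whose mRNA carries the same kind of element, fell from 141, 98.4 and 92 to 43.5, 30.9 and 40.1 (-1.51, SE 0.28, adjusted p = 0.0028).

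HAMP, hepcidin, the liver hormone that limits iron export, rose from 33, 24.3 and 19.7 to 139, 139 and 133 (2.41, SE 0.28, adjusted p = 0.000335). ACO1, the iron regulatory protein that doubles as cytosolic aconitase, rose by 1.63 (adjusted p = 0.00218), and BLVRB, a biliverdin reductase of haem breakdown, by 1.91 (adjusted p = 0.0022). In all, 3 of 15 iron genes rose and 5 fell. The rises numbered 3 in each of the 6 fits without 1 library, and the falls numbered 2, 3, 1 and 3 without vehicle libraries 1 and 2 and sorafenib libraries 1 and 3, and 3 without both shallow libraries.

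Among 28 NRF2 and ferroptosis genes, 9 rose and 1 fell (median 0.70). NQO1, a quinone reductase and standard NRF2 target, had 102, 93.3 and 56.3 against 515, 302 and 409 (2.29, SE 0.34, adjusted p = 0.00103). MT1X, a metal-binding metallothionein, had 231, 247 and 119 against 1402, 426 and 1488 (2.48, SE 0.48, adjusted p = 0.00323), with sorafenib library 2 well below libraries 1 and 3 but above all vehicle libraries. The count was 4, 5, 6, 3, 14 and 6 without vehicle libraries 1, 2 and 3 and sorafenib libraries 1, 2 and 3, and 11 without both shallow libraries.

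In the integrated stress response, the factor ATF4 and several of its targets went apart in this pool. ATF4, whose mRNA is held back by upstream reading frames until eIF2 is phosphorylated, had 798, 770 and 592 in vehicle and 228, 113 and 259 in sorafenib libraries (log2 fold change -1.84, SE 0.36, adjusted p = 0.0035). Of 26 genes in the list of ATF4 and its targets 10 rose and 2 fell, the falls being ATF4 itself and the related ATF5, with a median of 0.59. NUPR1, a small chromatin protein induced by stress, went from 28.9, 19.9 and 31.4 to 223, 92.6 and 209 (2.73, SE 0.35, adjusted p = 0.000505). ASNS, asparagine synthetase, rose by 1.62 (adjusted p = 0.00233), and PHGDH and PSAT1, which lead serine synthesis, rose by 1.43 and 1.86. The 10 rises became 7, 6, 7, 5, 14 and 8 without vehicle libraries 1, 2 and 3 and sorafenib libraries 1, 2 and 3, and were 10 without both shallow libraries.

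The lists of ERK output genes and of immediate early genes gave small numbers of calls with large single changes. Kinase activity was not measured in these libraries. Of 17 ERK output genes 1 rose and 3 fell, and of 17 immediate early and AP-1 genes 4 rose and 1 fell. DUSP6, the phosphatase that ERK induces against itself, had 28.2, 21.8 and 14.5 against 5.32, 0 and 6.68 (-2.01, SE 0.42, adjusted p = 0.00488). SPRY4, another feedback inhibitor, fell by 1.98 (adjusted p = 0.0113, lost without vehicle library 2 or sorafenib library 1), and IER3 fell by 1.16 (adjusted p = 0.0218, lost without vehicle library 1 or 2). DUSP1, a phosphatase of stress kinases, rose instead, from 7.89, 9.47 and 12.9 to 46.9, 17 and 53.4 (2.06, SE 0.34, adjusted p = 0.00174).

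JUNB and MAFF, AP-1 type factors, rose by 2.16 and 1.71, and ATF3, a stress-induced factor, had 1.08, 0.735 and 1.4 against 5.32, 6.17 and 5.75 (2.42, SE 0.51, adjusted p = 0.00506). ATF3 passed the count filter only through its sorafenib libraries, so its p-value is no independent measure of the rise. CCN1, a matrix protein and the one called member of 11 YAP-TEAD targets, rose from 4.06, 6.98 and 19.3 to 71.5, 46.3 and 55.6 (2.56, SE 0.45, adjusted p = 0.00228). GADD45B, a stress sensor, had 6.81, 7.35 and 16.5 against 98.6, 27.8 and 73.1 (2.78, SE 0.43, adjusted p = 0.00128). The ERK falls numbered 2 without vehicle library 1, 1 without vehicle library 2 and 2 without sorafenib library 1.

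The p53 and cell death lists stayed close to the background. Of 18 p53 targets 2 rose and 2 fell. No rise was called without vehicle library 1, vehicle library 2 or sorafenib library 1, and the falls numbered 1 without any 1 of the vehicle libraries or sorafenib library 1, and 3 without sorafenib library 3. MDM2, the ligase that degrades p53, had 226, 165 and 155 against 81.7, 69.4 and 79.9 (-1.23, adjusted p = 0.00628). Of 14 BCL2 family genes 1 rose and 3 fell. BOK, a pore-forming member, went from 66.1, 62.8 and 52.7 to 21.3, 24.7 and 27.6 (-1.29, adjusted p = 0.0035), while BBC3, the death-promoting PUMA, rose by 0.99 (adjusted p = 0.0103, lost without vehicle library 1, vehicle library 2 or sorafenib library 1). The BCL2 family falls were 1 without vehicle library 2 and 1 without sorafenib library 1. HSPA8, the constitutive HSP70, fell with groups far apart, from 999, 1014 and 978 to 253, 276 and 228 (-1.98, SE 0.31, adjusted p = 0.00128), whereas 6 of 26 heat shock genes rose and 2 fell (2 rose without vehicle library 1 and 10 without sorafenib library 2). DNAJA2, a partner of HSP70, was one of the 6, at 1.56 (adjusted p = 0.00181).

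Metabolic enzymes rose at many members and fell at few. In the TCA cycle and pyruvate dehydrogenase list 10 of 21 rose and 1 fell (median 0.76). IDH2, the mitochondrial isocitrate dehydrogenase, went from 19.2, 23.4 and 25.3 to 96.7, 84.9 and 81.4 (1.95, SE 0.25, adjusted p = 0.000471). In fatty acid oxidation 7 of 19 rose and none fell (median 0.56), with ETFB, which passes electrons from the pathway, at 224, 262 and 387 against 1393, 1435 and 758 (2.04, SE 0.37, adjusted p = 0.00272). In glycolysis 7 of 17 rose and none fell (median 0.79), and TPI1, an enzyme of its middle part, rose by 1.33 (adjusted p = 0.00686), a call lost without vehicle library 1, vehicle library 2 or sorafenib library 1.

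The glycolysis count was the least stable of these: 1, 0, 3, 0, 9 and 3 without vehicle libraries 1, 2 and 3 and sorafenib libraries 1, 2 and 3, although 9 rose without both shallow libraries. For the TCA list the counts were 6, 6, 7, 5, 11 and 6, and for fatty acid oxidation 4, 4, 5, 5, 8 and 5. Of 30 fatty acid and cholesterol synthesis genes 5 rose and 1 fell, with 3, 2, 2, 2 and 3 rises without vehicle libraries 1, 2 and 3 and sorafenib libraries 1 and 3. FDFT1, squalene synthase, rose by 1.95 (adjusted p = 0.00285).

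The proteasome degrades tagged proteins, and the snRNP particles make up the spliceosome. Of 34 proteasome subunits 15 rose, none fell and 19 were not called (median 0.68). PSMD11, a lid subunit, had 40, 37.6 and 37.4 against 119, 120 and 88.1 (1.50, SE 0.25, adjusted p = 0.00185), and PSMB3 and PSMB6, of the core, rose by 1.65 and 1.46. Of 36 spliceosomal snRNP protein genes 10 rose, 2 fell and 24 were not called (median 0.28), with SNRPB2, of the U2 particle, at 77.8, 95.4 and 112 against 476, 503 and 258 (2.11, SE 0.33, adjusted p = 0.00144). The proteasome count was 6, 5, 11, 5, 25 and 9 without vehicle libraries 1, 2 and 3 and sorafenib libraries 1, 2 and 3, and 14 without both shallow libraries. That of the snRNP proteins was 3, 3, 4, 3, 12 and 5, and 8.

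Actin genes include 1 of the 12 largest rises. Of 33 actin cytoskeleton genes 13 rose and 1 fell (median 0.60). ACTA1, skeletal muscle actin, was the largest rise by the rule for named genes apart from 4 rows of rRNA type or without a matched gene, going from 15.7, 29.1 and 21.2 to 295, 202 and 111 (3.20, SE 0.39, adjusted p = 0.000421), and reads of the other actins may reach it because the copies are alike. ACTB, cytoplasmic actin, had 449, 543 and 597 against 3326, 1785 and 2750 (2.31, SE 0.37, adjusted p = 0.0016), and MYL9, a myosin light chain, rose by 2.17. Of 13 tubulins none rose and 1 fell in the edgeR test. The actin count was 6 without vehicle library 1, 8 without vehicle library 2 and 7 without sorafenib library 1.

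Of 21 interferon-induced genes 9 rose and 1 fell (median 0.84). ISG15, a ubiquitin-like modifier, had 5.97, 8.27 and 12.2 against 56.1, 50.9 and 56.9 (2.65, SE 0.29, adjusted p = 0.000319). IRF1, a transcription factor of the response, rose by 2.49 (adjusted p = 0.000321). The list was stable to single libraries, with 7 to 10 rises, and 10 rose without both shallow libraries.

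**Figure D4:**
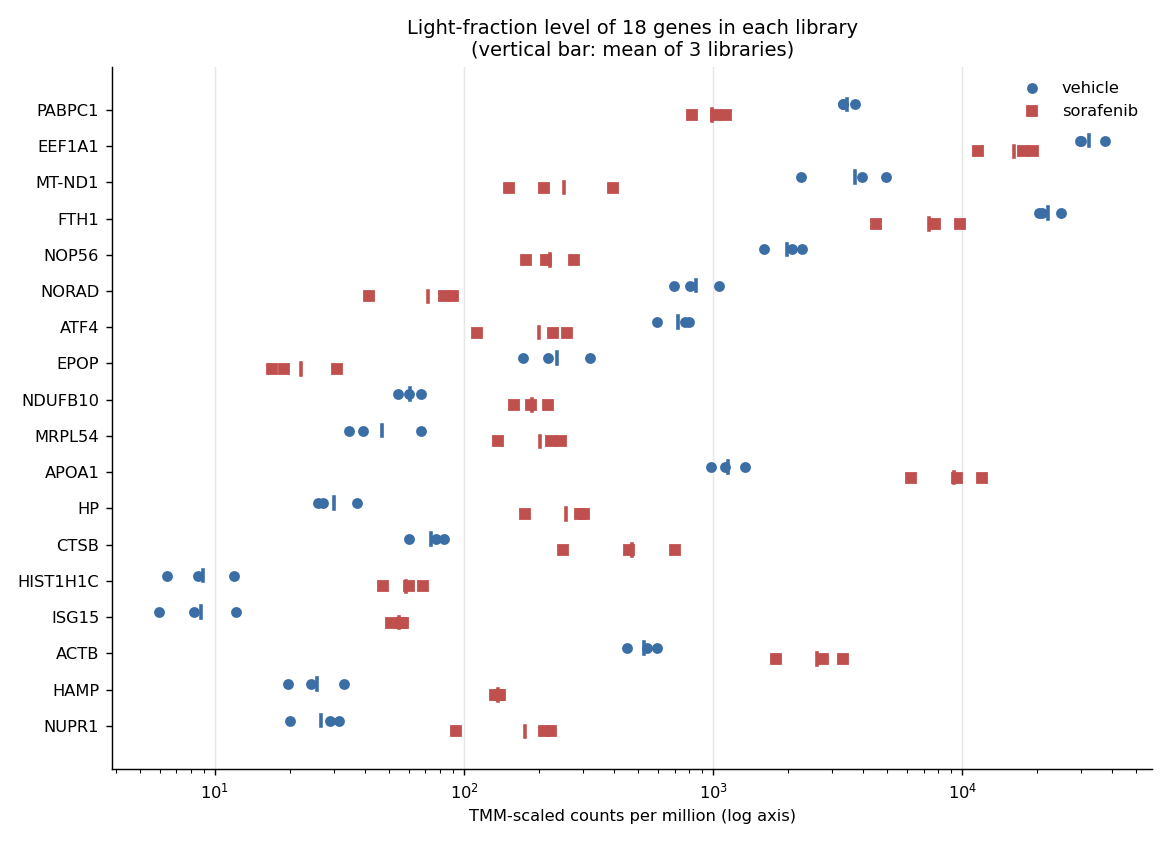
Points are TMM-scaled CPM of 18 genes in each library on a log axis (circles vehicle, squares sorafenib), and vertical bars are means of 3 libraries. The groups do not overlap in any of the 18, and EEF1A1 is the one gene among them that was not called (adjusted p = 0.103 in edgeR's quasi-likelihood test).

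Of the long non-coding RNAs that passed the count filter, more fell than rose. This description by the gene types of the RefSeq table was added after values were seen. Of 419 tested long non-coding RNAs 140 fell (33.4%) and 9 rose (2.15%), with a median log2 fold change of -0.87, against 12.1% and 13.4% of 10829 protein-coding genes. Of 45 snoRNA rows 22 fell and 3 rose. Over all rows of each type, the share of library counts overlapped between the groups. Long non-coding RNAs held 1.73, 1.49 and 1.51% in vehicle libraries and 1.14, 1.57 and 1.14% in sorafenib libraries. The snoRNA rows held 0.0722, 0.0504 and 0.0406% against 0.0389, 0.0648 and 0.0263%. NORAD, a long RNA that binds Pumilio proteins in the cytoplasm, had 1052, 696 and 809 against 83.1, 41.7 and 90.3 (-3.54, SE 0.38, adjusted p = 0.000319). OIP5-AS1, another cytoplasmic long RNA, fell by 2.41 (adjusted p = 0.000461). It is named as an antisense gene, and since the use of strand in counting is not given, reads of its partner cannot be told apart. MALAT1, which is kept in nuclear speckles, had 425, 505 and 483 against 301, 225 and 452, with overlapping groups and no call (-0.52, adjusted p = 0.246).

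Of 18 snoRNA host genes 11 fell and none rose (median -1.47). SNHG3 went from 808, 552 and 344 to 115, 86.4 and 132 (-2.34, SE 0.37, adjusted p = 0.00136), and SNHG16 from 1095, 956 and 982 to 340, 251 and 390 (-1.62, SE 0.32, adjusted p = 0.00364). Their spliced transcripts include TOP starts in several cases and are known to be degraded when ribosomes reach their early stop codons. The count of falls was 7 without sorafenib library 1 and 7 without both shallow libraries. Among other falls of high rank were EPOP, a partner of Polycomb and elongin proteins, from 173, 216 and 321 to 18.8, 30.9 and 16.9 (-3.51, SE 0.36, adjusted p = 0.000299), and TXNIP, an inhibitor of thioredoxin, which fell by 1.78 (adjusted p = 0.00138). The pseudogenes CLUHP3 and MST1P2 fell by 3.30 and 3.03, and reads of their parent genes may be among theirs.

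Ribosomal RNA rows rose most in fold, unevenly between libraries. RF00002, the 5.8S rRNA family, held 4.05, 0 and 1.08 raw CPM in vehicle libraries and 186, 2170 and 45.1 in sorafenib libraries (edgeR log2 fold change 8.33, SE 1.43, adjusted p = 0.00202). RNA5SP202, a 5S-like pseudogene row, held 17.2, 0.418 and 0.541 against 333, 1150 and 127 (5.96, SE 1.16, adjusted p = 0.0035). Both rows passed the count filter only because the sorafenib libraries were high, so their p-values are no independent measure of the rise. Copies of these RNAs are near-identical, and how reads were shared among them is not stated in the labels. Sorafenib library 2 was highest and library 3 lowest in the group for both, the order of the olfactory receptor reads, and library 3 alone was still above every vehicle library. RNA5SP202 was not called without both shallow libraries.

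RN7SL1, the RNA of the signal recognition particle, had 1820, 268 and 191 against 4260, 8010 and 1920 raw CPM. Vehicle library 1 was high there, and also in the small structural RNAs together, where it held 0.519% of counts against 0.0591 and 0.04% in the other vehicle libraries and 1.15, 1.69 and 0.487% in sorafenib libraries. The groups overlapped for the summed list. Of its 28 rows 15 passed the count filter, of which 3 rose and 1 fell. The rises of TERC and SNORD3A passed the filter only with the help of their sorafenib libraries. The fall, VTRNA1-2, passed it only through vehicle libraries. The p-values of these rows are therefore no independent measure of the change. The count of rises was 11 without vehicle library 1, 1 without vehicle library 2, 0 without vehicle library 3 or sorafenib library 1, 1 without sorafenib library 2, 6 without sorafenib library 3 and 0 without both shallow libraries.

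Histone messages of 2 classes had members that rose. Replication-dependent histones, whose mRNAs end in a stem-loop instead of a poly(A) tail, rose in 36 of the 37 genes that passed the count filter (68 are listed), with a median log2 fold change of 3.69. The 31 others were too low to test, and a gene that passed through one high group had to differ, so neither this count nor the median is a measure of the class. HIST1H1C, a linker histone, had 11.9, 8.55 and 6.4 CPM against 68.1, 60.2 and 47.1 (2.68, SE 0.29, adjusted p = 0.000319), and HIST1H3H had 6.09, 6.43 and 6.4 against 42, 81.8 and 26.9 (2.87, SE 0.36, adjusted p = 0.000468). Summed, the class took 0.00874, 0.00533 and 0.00444% of vehicle counts and 0.067, 0.14 and 0.0401% of sorafenib counts. Sorafenib library 2 was highest here as for the background rows, and library 3, whose background was in the vehicle range, was also above every vehicle library. The fit with sorafenib library 3 alone called 22 of the 34 that passed the filter there, with the same limit on what the count says.

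The replacement histones, which are polyadenylated, did not have that order: 0.0577, 0.0722 and 0.0605% of vehicle counts against 0.198, 0.175 and 0.206%. Of 12 genes 5 rose and none fell. Among the 5, H3F3C had 0.717, 0.919 and 1.09 CPM in vehicle and passed the count filter only through its sorafenib libraries. Its p-value is therefore no independent measure of the rise. H3F3B, an H3.3 gene, went from 162, 220 and 202 to 1078, 765 and 921 (2.24, SE 0.32, adjusted p = 0.000904), and H2AFJ from 11.8, 10.5 and 10.1 to 52.7, 41.7 and 45.1 (2.11, SE 0.24, adjusted p = 0.000321). Of 12 genes for histone mRNA 3' ends 2 fell and none rose: LSM11 and LSM10, of the U7 particle, fell by 1.95 and 1.53. SLBP, the stem-loop binding protein, had 45.9, 43.4 and 43.5 against 86, 38.6 and 64.5 and was not called (0.55, adjusted p = 0.165).

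Cell cycle genes outside histones changed at some members. Of 30 mitosis genes 8 rose and none fell (median 0.51), among them TPX2, a spindle assembly factor, at 29.3, 29.5 and 36.3 against 71, 67.9 and 92.9 (1.30, SE 0.25, adjusted p = 0.00331). Of 31 S phase genes 4 rose and 4 fell, close to the background in both directions. CCNA2, cyclin A2, had 20.6, 23.5 and 14 against 58, 69.4 and 71.2 (1.76, SE 0.27, adjusted p = 0.00112). RRM1, of ribonucleotide reductase, rose by 1.33 (adjusted p = 0.00351), and POLE, the leading-strand polymerase, fell from 39.2, 30.7 and 37.6 to 8.7, 23.1 and 3.71 (-2.09, SE 0.46, adjusted p = 0.0062, lost without sorafenib library 1). The count of mitosis rises was 4, 4 and 5 without vehicle library 1, vehicle library 2 and sorafenib library 3, and the S phase falls numbered 0 without sorafenib library 1 and 2 without vehicle library 1 or 2. The S phase rises numbered 2 without vehicle library 1 or sorafenib library 1.

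Whether these changes differ from those in polysomes was tested with the interaction of treatment and fraction in a fit over all 12 libraries and 14955 genes. The response was higher in the light than in the polysome fraction for 1645 genes (11.0%) and lower for 1794 (12.0%). That balance depended on the scaling: the counts were 2390 and 1210 with library totals, and 1250 and 2323 with TMM within each fraction, so the share of higher responses among calls went from 47.8% to 66.4% and 35.0%. With the culture as a block, since both pools of a culture come from 1 gradient, they were 1754 and 2076. Nuclear-encoded complex I differed at 30 of 37 genes in that direction and 2 in the other (0.79 against -1.07), complexes II to V at 29 and 3 of 43, and mitochondrial ribosomal proteins at 40 and 1 of 77 (0.45 against -0.70). Under these 3 alternatives the higher counts were 28 to 32, 27 to 35 and 35 to 53. NDUFB10 changed by 1.57 in light and by -1.45 in polysomes, and MRPL54 by 2.04 and -1.36. ISG15 changed by 2.62 and -0.74, a difference of 3.35 (SE 0.37, adjusted p = 3.46e-05). For HIST1H3H, a replication-dependent histone, the difference was 4.09 (SE 0.47, adjusted p = 3.46e-05 in edgeR). Of that class 43 of 68 genes passed the filter over 12 libraries and 38 were called higher in light, a count with the limit given above.

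Several lists of translation genes had more members with the lower response in light. Of 26 other TOP genes 19 had the lower response in the light fraction and none the higher (-1.10 against 0.50), and so did 24 of 38 ribosome biogenesis genes, with 3 higher (-0.03 against 1.11), and 14 of 22 tRNA synthetases, with none higher (8 with library totals). Among ribosomal proteins it was 9 of 79, near the background, with 2 higher. The initiation and elongation factors that are not TOP mRNAs went the other way, with 11 of 37 higher in light and 5 lower. NOP56 changed by -3.20 in light and 0.56 in polysomes, EIF3A by -1.38 and 1.66, MARS by -1.74 and 1.50, and FTH1 by -1.62 and 0.59. The mitochondrially encoded mRNAs had medians of -2.74 in light and -1.89 in polysomes, and 0 of the 13 passed edgeR's test of the difference (4 had an unadjusted p under 0.05). The count was also 0 with the culture as a block (4 at the unadjusted p), but 3 were lower in light with TMM within each fraction and 1 was higher with library totals. Secreted liver proteins had medians of 1.27 and 1.86. Of 43 genes 9 had the higher response in light and 10 the lower, both shares above the 11.0% and 12.0% over all genes. Those counts were 11 and 6 with library totals, and 6 and 12 with TMM within each fraction. Without vehicle light library 2 or sorafenib light library 1 the interaction test called 1007 and 1094 genes higher.

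**Figure D5:**
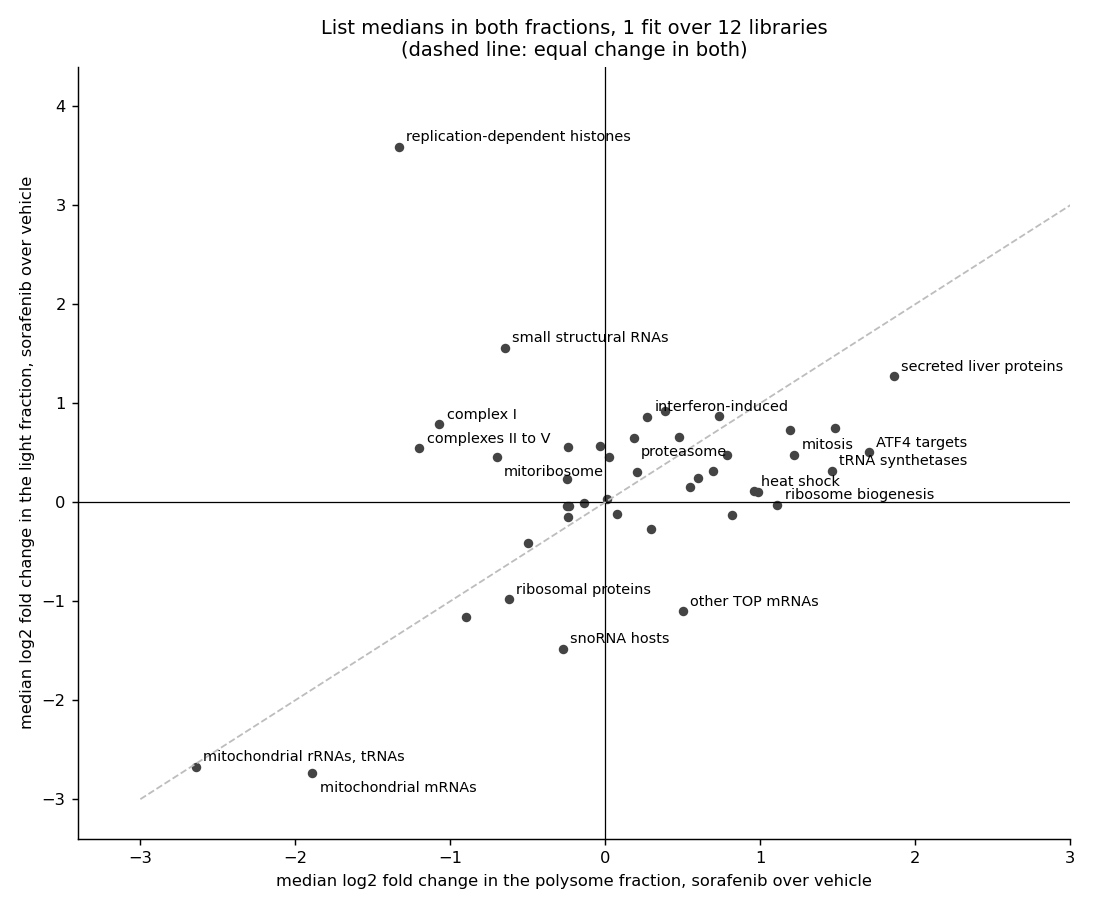
Each point is 1 gene list, placed by the median log2 fold change of its members in the polysome fraction (horizontal) and in the light fraction (vertical) from 1 fit over 12 libraries; the dashed line marks equal change. Nuclear-encoded complex I (0.79 against -1.07) lies above the line, and other TOP mRNAs (-1.10 against 0.50) and ribosome biogenesis genes (-0.03 against 1.11) lie below it. The point of replication-dependent histones covers only the members that passed the count filter.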

How the data were processed

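The authors deposited whole-number counts per gene for 12 libraries, which were used as given. The submitters' processing notes name GRCh38.p12; for the aligner, counter, annotation and strand setting, nothing is given in the sources used here. The members and gene lists were chosen with earlier results of these data known. In the 6 light-fraction libraries filterByExpr kept 12925 genes, and the rows it left out held 0.336 to 5.32% of a library's counts. TMM scaling took the deepest library, vehicle 2, as reference (factors 0.85 to 1.34). Counts were tested with edgeR 4.0.16's quasi-likelihood test without a block (R 4.3.3, limma 3.58.1, DESeq2 1.42.0), at a Benjamini-Hochberg adjusted p under 0.05. The common coefficient of biological variation came to 0.26. Each SE was taken as |log2 fold change| divided by the root of F. The interaction fit used all 12 libraries.

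Named genes are the 12 largest rises and the 12 largest falls among called genes whose groups do not overlap and whose mean log2 CPM is 5 or more, up to 4 called members of each list by p, and 20 fixed genes; some are not reported here. The titles number the replicates as separate experiments; if cultures were shared, the p-values reflect only how these libraries spread. Chi-square per degree of freedom was 8.82 to 40.8 between replicate pairs, beyond sampling noise. Symbols were matched to RefSeq genes of GRCh38.p14: 36210 by symbol, 1062 by an older symbol, 36 mitochondrial and 20045 not. Start sequences are RefSeq's from GRCh38.p14. Genes with near-identical copies, overlapping neighbours or antisense partners are uncertain. The scripts were tested on simulated data, with changes put into genes at a mean log2 CPM of 5 or more. The test recovered 0% of 1.5-fold, 20.9% of 2-fold and 98.5% of 4-fold changes. A gene that was not called can therefore still have changed by 2-fold. In all, 24 alternatives covered scaling, filters, tools, depth, the replicate block and leaving out libraries; 1 of these, thinning, was changed after seeing the data. Row types, abundance bands and start sequences were described after seeing the data.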

Additional observations from a re-analysis of the deposited data

Results flagged for a closer look

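The sorafenib response differed between the light and the polysome fraction, by the interaction test, for many genes: it was higher in the light fraction for 1645 and lower for 1794. The balance turned with the scaling, to 2390 and 1210 with library totals and 1250 and 2323 with TMM within each fraction. Among genes named above, the light minus polysome difference in log2 fold change was -3.76 for NOP56, -3.05 for EIF3A, -3.24 for MARS and -2.21 for FTH1. It was 3.40 for MRPL54, 3.02 for NDUFB10, 4.09 for HIST1H3H and 3.35 for ISG15. The groups of 3 libraries are too small for a check of single outlying values.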

How the results depend on the processing

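The 1609 rises became 2951 with library totals as the scale, 828 with at least 10 counts required in each library (5541 genes tested), 652 after thinning to the smallest total (5098 genes tested) and 977 with the replicate block; leaving out 1 library gave 653 to 2174. The 1853 falls became 1068 with library totals, 1033 with at least 10 counts and 759 after thinning, and leaving out 1 library gave 838 to 2361. With the block 1237 genes fell. Deviations of libraries with the same number correlated at r = -0.01, -0.13 and -0.12, and those with unlike numbers at -0.05 to 0.22. Deviations from means of 3 libraries are tied to each other, so these values cannot tell whether the numbers mark pairs. Thinning was binomial: edgeR's thinCounts, tried first, gave 6 rises and 10 falls at a coefficient of variation of 0.78, and was replaced after seeing this because it subtracts multinomial draws and adds spread of its own. The interaction counts of 1645 and 1794 went to 1754 and 2076 with the culture as a replicate block, and 1007 to 1931 and 1327 to 2032 when 1 light library was left out. Of 147 called genes followed by name, 99 passed in every alternative that tested them and none changed direction. Depth limits the sorafenib group most: library 2 holds 511065 counts, so genes with few counts there are measured least well.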
